A study of Mus musculus with 9 samples.

Results

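Toll-like receptors (TLRs), the membrane-bound sensors of microbial and damage-derived molecules, were examined as a gene family in RNA sequencing of primary 4T1 tumors. The family was taken as 10 mouse genes, Tlr1 to Tlr9 and Tlr13, found in the deposited table by their Entrez gene identifiers. All 10 were among the 18755 genes of the table, and all 10 were among the 13966 genes that passed the filter on low counts. The tumors were grown from 1000000 4T1 cells, a metastatic mouse mammary carcinoma line, injected into the mammary fat pad of female BALB/c mice aged 6 to 10 weeks. BALB/c is the strain the line came from, so the hosts kept an intact immune system. From day 15 after injection, 6 mice received the FAK inhibitor BI 853520 (abbreviated BI) at 50 mg/kg by oral gavage and 3 mice received the 0.5% Natrosol vehicle alone, for 5 days in both groups. Each tumor gave 1 library (vehicle replicates 1 to 3 and BI replicates 4 to 9), and per the study only tumors with RNA of sufficient quality entered its analysis. The comparison addressed how the expression of the receptors in a whole tumor, cancer cells and host cells together, differed after inhibition of FAK.

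TLRs carry leucine-rich repeats that bind the ligand and a cytoplasmic TIR domain that recruits adaptor proteins. Tlr1, Tlr2, Tlr4, Tlr5 and Tlr6 act mainly at the cell surface and sense lipids, lipopeptides and flagellin, whereas Tlr3, Tlr7, Tlr8, Tlr9 and Tlr13 sit in endosomes and sense nucleic acids. Signaling through MyD88 or TRIF ends in the activation of NF-κB and interferon regulatory factors, and in tumors most of these receptors are known from macrophages, dendritic cells and other leukocytes, with some also made by epithelial and stromal cells.

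Of the 10 receptor genes, 9 were higher in BI tumors at an adjusted p of at most 0.05 (edgeR's quasi-likelihood test, Benjamini-Hochberg adjustment over all genes tested) and none was lower. Over all 13966 genes tested, 14.6% were called higher and 14.1% lower. With the study's cutoffs (unadjusted p of at most 0.05 and a log2 fold change of at least 0.58, or 1.5-fold), 7 of the 10 passed as higher, against 9.59% of all genes higher and 3.57% lower. For 9 of the 10, every BI tumor lay above every vehicle tumor, which held for 14.1% of all genes, while 14.0% had every BI tumor below. The median log2 fold change of the 10 genes was 0.68, beside -0.0037 over all genes tested. Tlr9, Tlr8, Tlr5 and Tlr7 changed most, Tlr2, Tlr1 and Tlr13 by about 1.5- to 1.6-fold, Tlr4 and Tlr3 by less, and Tlr6 did not pass the threshold.

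Levels are given as counts per 1000000 counts of the library (CPM), with library sizes scaled by the trimmed mean of M values (TMM), and errors of means as SD over 3 vehicle or 6 BI tumors. Total counts ran from 21727879 to 33850245 per vehicle tumor and from 16931607 to 22349873 per BI tumor, so that 3 counts corresponded to between 0.0884 and 0.174 CPM. The lowest count of any of the 10 receptors was 62 (Tlr5, vehicle replicate 2). The labels do not say more about how the tumors are related, and p-values measure the spread between these tumors. The keratins Krt8 and Krt18, which mark carcinoma epithelium, were abundant and lower in BI tumors by 0.28 and 0.50 on the log2 scale. The other 5 of 7 epithelial markers were not called, among them Epcam, which was low (1.503 to 2.71 CPM in vehicle and 1.98 to 10.3 CPM in BI tumors, log2 fold change 1.06, adjusted p = 0.0987).

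**Figure D1:**
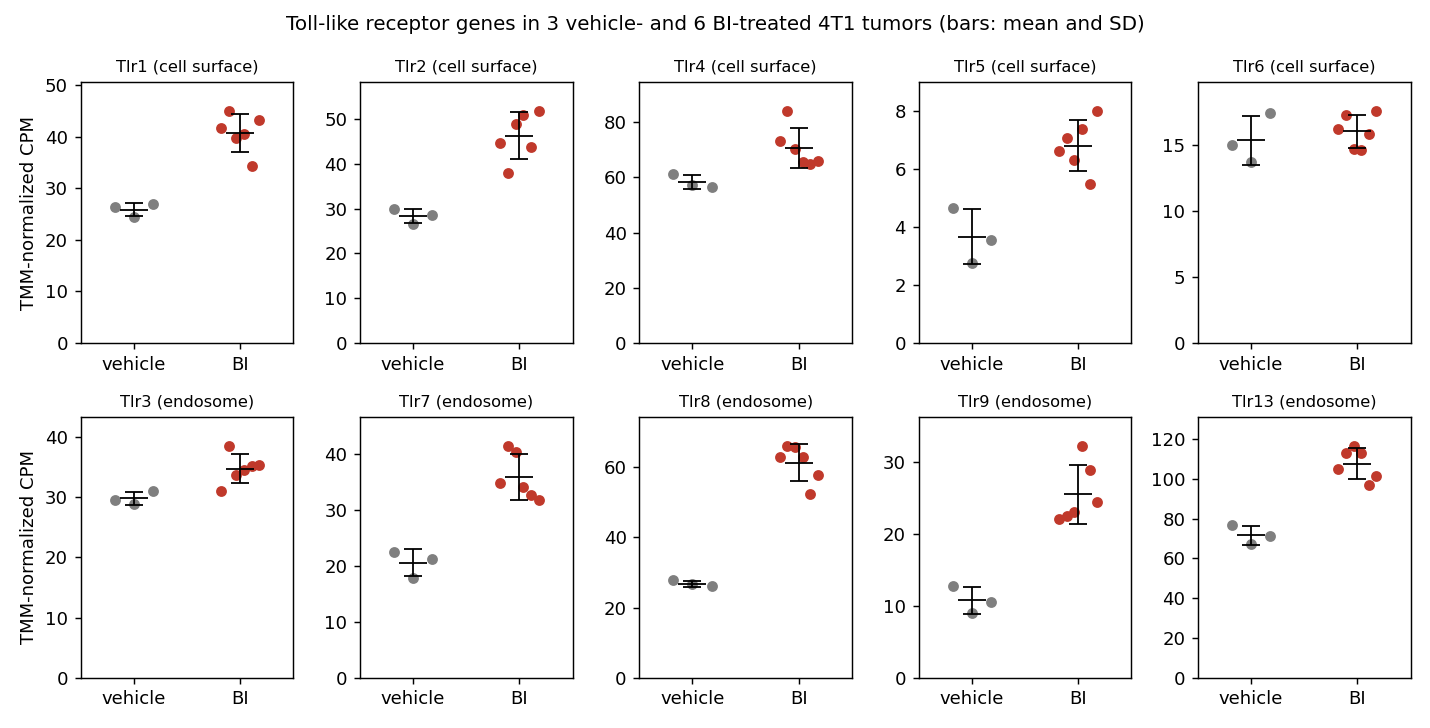
TMM-normalized CPM of each of the 10 receptor genes, with 1 point per tumor (vehicle n = 3, BI n = 6) and bars for the group mean and SD. Tlr6 is the gene whose groups overlap, and the ranges of Tlr3 nearly touch at 31.1 CPM.

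Tlr8 and Tlr9 rose most. Tlr8, which sits next to Tlr7 on the X chromosome and belongs with it to the receptors for RNA, was at 27.8, 26.7 and 26.1 CPM in vehicle replicates 1 to 3. In BI tumors its lowest, median and highest values were 52.4, 62.9 and 66.1 CPM. The groups were far apart, the vehicle tumors were nearly equal, and each BI tumor was well above them. The log2 fold change was 1.19 ± 0.081 (SE), a 2.29-fold rise (95% interval 2.02 to 2.58, adjusted p = 8.76e-06).

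Tlr9, the receptor for DNA rich in unmethylated CpG, was at 12.8, 8.99 and 10.5 CPM in the vehicle tumors. The BI tumors had a lowest value of 22.1, a median of 23.8 and a highest value of 32.3 CPM. Vehicle replicate 1 was the highest of its group and still below all BI tumors, of which replicate 7 was the highest. The rise was 2.38-fold (log2 fold change 1.25 ± 0.15 (SE), adjusted p = 0.000137), with a wider interval than for Tlr8, from 1.90 to 2.98.

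Tlr7, the receptor for guanosine and uridine-rich RNA, was at 22.6, 17.9 and 21.3 CPM in vehicle tumors. Its lowest, median and highest values in BI tumors were 31.9, 34.5 and 41.5 CPM. No BI tumor reached down to the vehicle range, and the fold change was 1.75 (log2 0.81 ± 0.11 (SE), adjusted p = 0.000288).

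Tlr13, which recognizes a conserved stretch of bacterial ribosomal RNA and exists in mice but not in humans, was at 76.8, 67.1 and 71.3 CPM in the vehicle tumors. BI tumors ran from 97.0 through a median of 109.1 to 116.6 CPM. The groups did not overlap, and the log2 fold change of 0.59 ± 0.072 (SE, adjusted p = 0.000163) lay just inside the study's 0.58 limit. It fell below that limit, to between 0.54 and 0.58, without vehicle replicate 2 or 3 or BI replicate 5, 6 or 7.

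Tlr3, the receptor for double-stranded RNA and the one member that signals without MyD88, was at 29.5, 28.9 and 31.1 CPM in vehicle tumors. Its BI values had a lowest of 31.1, a median of 34.9 and a highest of 38.5 CPM. The lowest BI tumor and the highest vehicle tumor were practically equal. The log2 fold change was 0.22 ± 0.073 (SE, adjusted p = 0.0413), and the call was lost in 8 of the 9 fits that left out 1 tumor (adjusted p between 0.051 and 0.132 in those), with only BI replicate 4 removable without losing it.

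**Figure D2:**
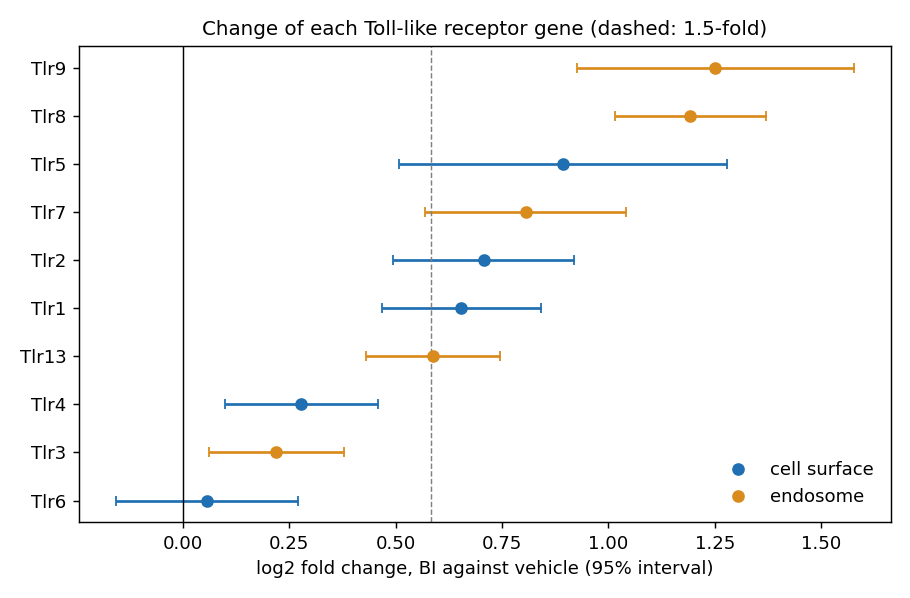
Log2 fold change of each receptor gene in BI against vehicle tumors, with its 95% interval, in order of size, colored by cell surface or endosomal location. The dashed line marks the study's limit of 0.58, and Tlr6 is the gene whose interval spans 0.

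Among the surface receptors, Tlr2 and Tlr1, which pair with each other to bind triacylated lipopeptides, both rose. Tlr2 was at 29.98, 26.7 and 28.5 CPM in the vehicle tumors, against 38.0 (lowest), 46.8 (median) and 51.8 CPM (highest) in the BI tumors. Tlr1 was at 26.3, 24.4 and 27.0 CPM in the vehicle tumors, and at 34.2, 41.1 and 45.0 CPM as lowest, median and highest BI values. Neither gene had a BI tumor inside the vehicle range. The log2 fold changes were 0.71 ± 0.098 (SE, adjusted p = 0.000346) for Tlr2 and 0.65 ± 0.086 (SE, adjusted p = 0.000252) for Tlr1.

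Tlr6, the other partner of Tlr2 and a receptor for diacylated lipopeptides, was not called. It was at 15.0, 13.7 and 17.4 CPM in the vehicle tumors and ran from 14.6 through a median of 16.03 to 17.6 CPM in the BI tumors. The ranges lay almost on top of each other. The log2 fold change was 0.06 ± 0.098 (SE, adjusted p = 0.705), with a 95% interval of 0.897- to 1.21-fold.

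Tlr4, the receptor for lipopolysaccharide, was at 61.1, 57.2 and 56.4 CPM in the vehicle tumors and at 64.7 (lowest), 68.0 (median) and 84 CPM (highest) in the BI tumors. The groups were separate but close, with BI replicate 5 above the others. The change was 1.21-fold (log2 0.28 ± 0.083 (SE), adjusted p = 0.0259), and the call was lost without vehicle replicate 2 (adjusted p = 0.0831) or vehicle replicate 3 (0.101).

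Tlr5, the receptor for flagellin, was the least abundant member, at 4.68, 2.77 and 3.57 CPM in vehicle tumors. BI tumors ran from 5.48 through a median of 6.85 to 8.00 CPM. All BI tumors were above all vehicle tumors, and the vehicle tumors varied more among themselves than for any other member (a coefficient of variation of 26.0%, against 3.18% for Tlr8). The rise was 1.86-fold (95% interval 1.42 to 2.43, adjusted p = 0.00317).

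Mouse Tlr11 and Tlr12, the receptors for profilin of apicomplexan parasites, are family genes outside the 10 and were both higher. Tlr11 was between 0.642 and 1.21 CPM in vehicle tumors and between 2.60 and 7.30 CPM in BI tumors (log2 fold change 2.28 ± 0.36 (SE), adjusted p = 0.000853). Tlr12 was between 1.39 and 1.79 CPM in vehicle tumors and between 2.38 and 6.30 CPM in BI tumors (log2 fold change 1.54 ± 0.32 (SE), adjusted p = 0.00404). Both were scarcer per kilobase in vehicle tumors than any of the 10. Their counts in vehicle replicates 1 to 3 were low, at 14, 15 and 41 for Tlr11 and 39, 31 and 50 for Tlr12.

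To compare the receptors with each other, CPM were divided by the deposited gene length in kilobases (kb). The levels of Tlr1 and Tlr6 can be too low in this order, because the 2 genes share part of their sequence, as described below. In vehicle tumors Tlr13 stood first with 17.9 ± 1.20 CPM per kb, followed by Tlr4 (15.1 ± 0.65), Tlr2 (9.94 ± 0.58), Tlr8 (8.50 ± 0.27), Tlr1 (8.48 ± 0.44), Tlr3 (6.89 ± 0.26), Tlr6 (5.92 ± 0.72), Tlr7 (5.49 ± 0.65), Tlr9 (3.10 ± 0.55) and Tlr5 (1.15 ± 0.30). The ranges of Tlr8 and Tlr1, of Tlr3 and Tlr6, and of Tlr6 and Tlr7 overlapped, and the other neighbors in the order were separate. In BI tumors Tlr13 was again first (26.9 ± 1.93), and Tlr8 had moved from the fourth place to the second (19.4 ± 1.68). Then came Tlr4 (18.4 ± 1.90), Tlr2 (16.2 ± 1.83) and Tlr1 (13.3 ± 1.21), each overlapping its neighbor, then Tlr7 (9.60 ± 1.08), Tlr3 (8.03 ± 0.56), Tlr9 (7.37 ± 1.18) and Tlr6 (6.17 ± 0.48), which overlapped in the same way, and last Tlr5 (2.13 ± 0.27). Tlr8 thus overlapped with Tlr4 in BI tumors, whereas in vehicle tumors its range lay below that of Tlr4.

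The sum of the 10 genes was 77.5 to 86.7 CPM per kb in vehicle tumors and 117 to 134 CPM per kb in BI tumors. The 5 endosomal receptors made up 50.4% to 51.3% of this sum in the vehicle tumors and 53.5% to 57.3% in the BI tumors, so the groups did not overlap. Tlr13 kept between 20.1% and 22.1% of the sum in all tumors, with the groups overlapping. The median log2 fold change was 0.81 over the 5 endosomal and 0.65 over the 5 surface receptors, and both classes held members with small changes.

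**Figure D3:**
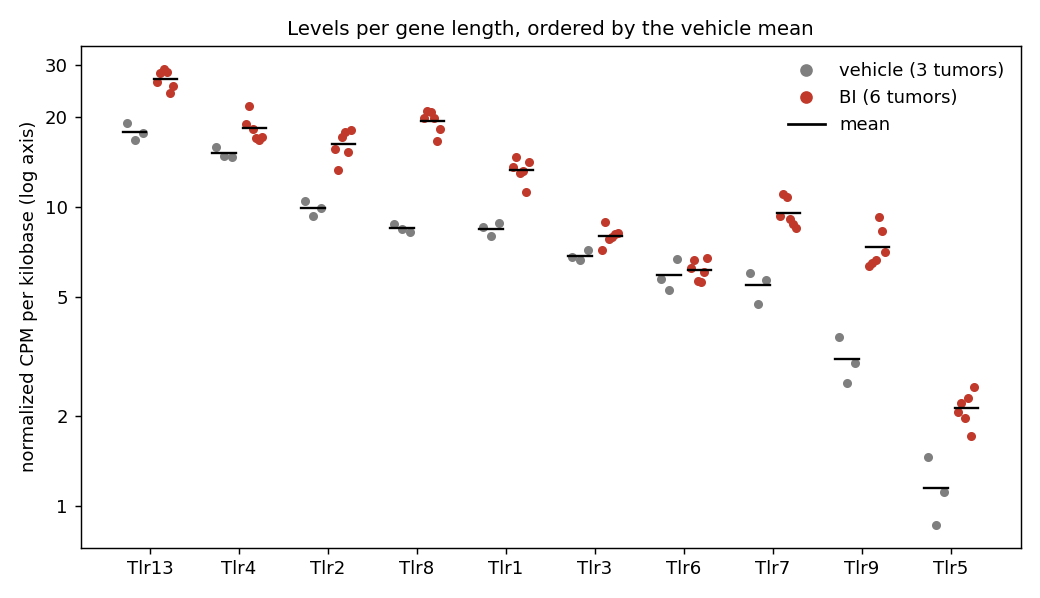
CPM per kilobase of gene length (log axis) for the 10 receptors in vehicle and BI tumors, with 1 point per tumor and a bar at the group mean. Tlr13 is highest in both groups (17.9 and 26.9 CPM per kb) and Tlr5 lowest (1.15 and 2.13).

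Whether members changed by unequal amounts was tested on the log2 ratio of 8 pairs of genes in each tumor, with an exact permutation test (two-sided) over all 84 divisions of the 9 tumors, for which the smallest possible p is 0.0238. The ratio of Tlr2 to Tlr6 ran from 0.71 to 1.00 on the log2 scale in vehicle tumors and from 1.13 to 1.80 in BI tumors, a mean difference of 0.64 (exact p = 0.0238, adjusted over the 8 pairs 0.0317). The ratio of Tlr6 to Tlr1 fell by 0.59 on the log2 scale with the same p-values, and all 6 BI tumors lay below all vehicle tumors. Tlr1 and Tlr6, the partners of Tlr2, thus differed in their change. For the ratio of Tlr2 to Tlr1 no difference was detected (0.05 on the log2 scale, exact p = 0.69, and 0.14 with exact p = 0.107 without BI replicate 5), with 4 BI tumors above and 1 below the vehicle range.

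Tlr7 was set against the other nucleic acid sensors and Tlr4. Its ratio to Tlr8 fell by 0.38 on the log2 scale, so that Tlr8 rose more than its neighbor. Its ratios to Tlr3, Tlr13 and Tlr4 rose by 0.58, 0.22 and 0.53. In these 4 pairs all 6 BI tumors lay on 1 side of all vehicle tumors (each exact p = 0.0238, adjusted p = 0.0317). For the ratio to Tlr13 the groups nearly touched, with the highest vehicle tumor at -1.737 and the lowest BI tumor at -1.726. The ratio to Tlr9 fell by 0.44 with 5 of 6 BI tumors below the vehicle range, and missed the threshold after adjustment (exact p = 0.0476, adjusted p = 0.0544).

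**Figure D4:**
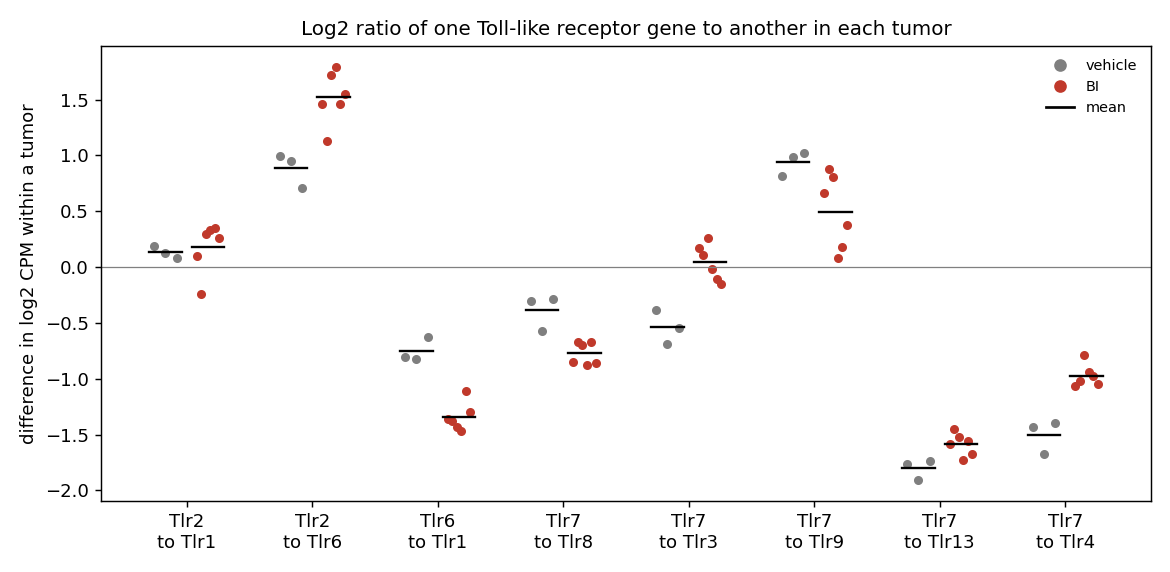
Log2 ratio of CPM between the genes of each of the 8 pairs, with 1 point per tumor and a bar at the group mean. The groups are separate in 6 pairs and overlap for Tlr2 to Tlr1 and, by 1 BI tumor, for Tlr7 to Tlr9.

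Tlr7 and Tlr8 lie on the minus strand of the X chromosome (mm9, chrX:163742861-163768490 and chrX:163680626-163702261), 40599 bases apart, and Tlr13 lies elsewhere on that chromosome (chrX:103338543-103355832, plus strand). Tlr1 (chr5:65316050-65324000) and Tlr6 (chr5:65344345-65351287) are neighbors on the minus strand of chromosome 5, with 20344 bases between them. Tlr9 is on chromosome 9 (chr9:106124929-106129207), Tlr2 on chromosome 3 (chr3:83640195-83645689), Tlr4 on chromosome 4 (chr4:66488618-66591318), Tlr5 on chromosome 1 (chr1:184884919-184906175) and Tlr3 on chromosome 8 (chr8:46481019-46495962). No exon of the 10 genes overlapped an exon of another annotated gene. Tlr1 and Tlr6 are near-identical over part of their coding sequence. Of the 50-base windows of their exons, 17.4% of Tlr1 and 17.8% of Tlr6 were found in the other gene, and a read from these has no unique place unless its mate gives it one. Only unique alignments were kept, so the counts of Tlr1 and Tlr6 can be too low to that degree, and with them their places in the order per kilobase. No such window was shared by the other members.

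The 250 bases before the transcription start were available from RefSeq (GRCm38.p6) for 8 of the 10 genes, in 10 windows, and not for Tlr4 and Tlr7. They were searched on both strands for the letters GAGGAA, the core bound by PU.1, the myeloid transcription factor encoded by Spi1. These letters were chosen with the expression values known. They stood in 4 of the 10 windows (of Tlr1, Tlr8, Tlr9 and Tlr13), beside 23.3% of all 32851 windows of that length. They were not in the windows of Tlr2, Tlr3, Tlr5 and Tlr6. Of these, Tlr2, Tlr3 and Tlr5 were called higher too. The 4 windows are shown because they hold the letters, which are in capitals (TTCCTC where it is on the other strand).
Tlr1, chr5:64933559-64933808, minus strand: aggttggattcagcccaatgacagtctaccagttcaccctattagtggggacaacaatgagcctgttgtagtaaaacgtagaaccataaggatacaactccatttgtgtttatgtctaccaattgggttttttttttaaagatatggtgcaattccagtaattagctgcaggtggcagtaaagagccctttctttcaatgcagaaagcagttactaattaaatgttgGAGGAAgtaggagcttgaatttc
Tlr8, chrX:167264330-167264579, minus strand: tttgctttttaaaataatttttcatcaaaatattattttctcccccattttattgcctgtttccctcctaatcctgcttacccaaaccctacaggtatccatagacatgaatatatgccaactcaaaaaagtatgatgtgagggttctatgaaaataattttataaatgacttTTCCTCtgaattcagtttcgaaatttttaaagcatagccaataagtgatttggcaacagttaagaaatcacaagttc
Tlr9, chr9:106222348-106222597, plus strand: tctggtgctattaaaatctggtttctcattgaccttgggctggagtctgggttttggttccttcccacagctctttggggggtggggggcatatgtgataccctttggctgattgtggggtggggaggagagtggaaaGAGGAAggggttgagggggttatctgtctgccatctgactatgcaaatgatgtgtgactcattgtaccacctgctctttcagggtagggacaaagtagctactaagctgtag
Tlr13, chrX:106143025-106143274, plus strand: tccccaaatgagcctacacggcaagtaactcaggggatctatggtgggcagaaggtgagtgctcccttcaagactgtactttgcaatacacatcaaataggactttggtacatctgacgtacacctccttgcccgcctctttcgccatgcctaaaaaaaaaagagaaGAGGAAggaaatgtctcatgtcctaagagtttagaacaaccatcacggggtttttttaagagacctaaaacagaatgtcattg
The leftmost capital letter, as printed, lay 23 bases before the start in Tlr1, 77 in Tlr8, 112 in Tlr9 and 83 in Tlr13. Tlr1 has another window, which held no such match. The letters AANNGAAA, a core for interferon regulatory factors, were found in 4 of the 10 windows (of Tlr1, Tlr2, Tlr3 and Tlr6) against 21.3% of all windows. GGNNTTTCC, part of the NF-κB site, was found in 2 of the 10 (of Tlr3 and Tlr5) against 4.93%. Tlr6, with matches to AANNGAAA, is the member that was not called. The searches could overlap each other, and a match of letters is a description only.

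The genes whose pattern over the 9 tumors was most like that of each receptor were found by the root mean square (RMS) difference in mean-centered log2 CPM over 12176 genes. Values were centered over all 9 tumors and not within groups, so genes with a like fold change between the groups come out close. The closest to Tlr8 was Ms4a6c (RMS difference 0.0835 on the log2 scale), with log2 fold changes of 1.19 for Tlr8 and 1.18 for Ms4a6c. Fcgr4, an activating Fc receptor of myeloid cells, and Fgl2 were the closest to Tlr9 (0.0982 and 0.131). Rac2, a GTPase of blood cells, and the kinase Lyn were the closest to Tlr2, Colec12 and Pip4k2a to Tlr1, and the phosphatase Ptprj and Arap1 to Tlr13. Nacc2 and the lymphocyte receptor Ly9 were the closest to Tlr7, Slc43a3 and Parvg to Tlr5, Inpp5k and Wdfy2 to Tlr4, Ostm1 and Cemip2 to Tlr3, and Gnptab and Zfp236 to Tlr6. Within the family, Tlr1 and Tlr13 were the most alike (0.103), followed by Tlr3 and Tlr4 (0.119).

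Genes whose proteins fold, carry or assist the receptors were called in both directions. Of 12 such genes, 11 were tested (Tril was below the filter), 5 were higher and 2 lower, with a median log2 fold change of 0.38. The shares over all genes tested, for this list and each list that follows, were 14.6% higher and 14.1% lower. The number lower in this list was near that share. Unc93b1, the chaperone that brings endosomal TLRs out of the endoplasmic reticulum, was between 115 and 149 CPM in vehicle tumors and between 212 and 310 CPM in BI tumors (log2 fold change 1.02 ± 0.11 (SE), adjusted p = 9.12e-05). Ly86, which encodes the partner of the TLR-like receptor RP105, rose by 1.00 ± 0.099 (SE) on the log2 scale. RP105 itself (Cd180), the TLR-binding protein Nrros and the lipopolysaccharide carrier Lbp, all named after their values were seen, were the other 3 called higher, and the Lbp groups overlapped (5.87 to 13.3 and 11.3 to 136 CPM). Cd14, which delivers lipopolysaccharide to Tlr4, was lower at 95.3 to 116 CPM in BI tumors against 140.0 to 169.6 CPM in vehicle tumors (log2 fold change -0.52 ± 0.083 (SE), adjusted p = 0.000886). The folding chaperone Hsp90b1, the most abundant gene of the list, fell by 0.30 on the log2 scale.

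Endosomal TLRs are cut by lysosomal proteases before they signal, and lysosomal nucleases clear their ligands. Of 5 proteases, 4 were higher and none lower: Ctss, Lgmn, Ctsb and Ctsl, by 0.91, 0.80, 0.51 and 0.49 on the log2 scale, while Ctsk did not pass (log2 fold change 0.60). Of 5 nucleases, Pld4, Pld3 and Dnase2a were higher (log2 fold changes 1.14, 0.41 and 0.32). Pld4, an exonuclease that degrades single-stranded nucleic acid in endosomes, was between 75.3 and 99.5 CPM in vehicle tumors and between 177 and 209 CPM in BI tumors.

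Of the 6 adaptor genes, 4 were higher and none lower. Myd88, the adaptor of all TLRs except Tlr3, was at 50.4 to 54.9 CPM in vehicle tumors and 67.8 to 81.2 CPM in BI tumors (log2 fold change 0.46 ± 0.066 (SE), adjusted p = 0.000431). Ticam1 (TRIF), which serves Tlr3 and Tlr4, rose by 0.27 on the log2 scale, Ticam2 (TRAM) by 0.85 and Pik3ap1 (BCAP) by 0.89, whereas Tirap and Sarm1 did not pass. Of 18 kinases and ligases of the pathway, 5 were higher and 2 lower (14.6% and 14.1% of all genes tested), with a median of 0.06. The number lower was near the share over all genes. The kinase Btk rose by 0.90 and Irak4, the first kinase of the MyD88 complex, by 0.44, followed by Ikbkb, Ripk1 and Irak1 (0.32, 0.23 and 0.14). Tab3 and Irak2 fell by 0.27 and 0.29. Tab2, the most abundant of these genes, was not called. Of 10 transcription factors, 4 were higher (Spi1 by 0.73, Irf5 by 0.71, Irf7 by 0.57 and Irf8 by 0.45), and the NF-κB subunit genes Nfkb1 and Nfkb2 were lower by 0.19 and 0.23. The 2 lower genes of this list were also near the share over all genes.

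Of 24 genes that TLR signaling is known to induce, 22 were tested, 3 were higher and 7 lower, beside 14.6% higher and 14.1% lower of all genes tested. The number higher was near the share over all genes, and the median log2 fold change of the list was -0.18. Cxcl1, a chemokine for neutrophils, was between 55.4 and 66.2 CPM in vehicle tumors and between 13.2 and 31.9 CPM in BI tumors, and it fell by 1.47 ± 0.23 (SE) on the log2 scale (adjusted p = 0.00082). Ptgs2 (cyclooxygenase), the most abundant gene of the list, fell by 1.22, and Il6, Cxcl2, Il1b, Nos2 and Nfkbiz were also lower. The chemokine Ccl5 rose by 1.10 and Il10 by 1.09, and Cd40 was higher by 0.36. Ifnb1 and Il12a were below the filter. Among 12 negative regulators 2 were higher (Cd300a by 0.94 and Irak3 by 0.47) and 2 lower (Tnfaip3, the deubiquitinase A20, by 0.47, and Sigirr by 0.45). Both numbers were near the shares over all genes tested. The other 8 regulators were not called, and the median log2 fold change of the list was 0.005. Of 10 endogenous ligands, the calprotectin genes S100a9 and S100a8 and the chaperone Hspd1 were lower (log2 fold changes -1.30, -1.26 and -0.52) and none was higher.

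**Figure D5:**
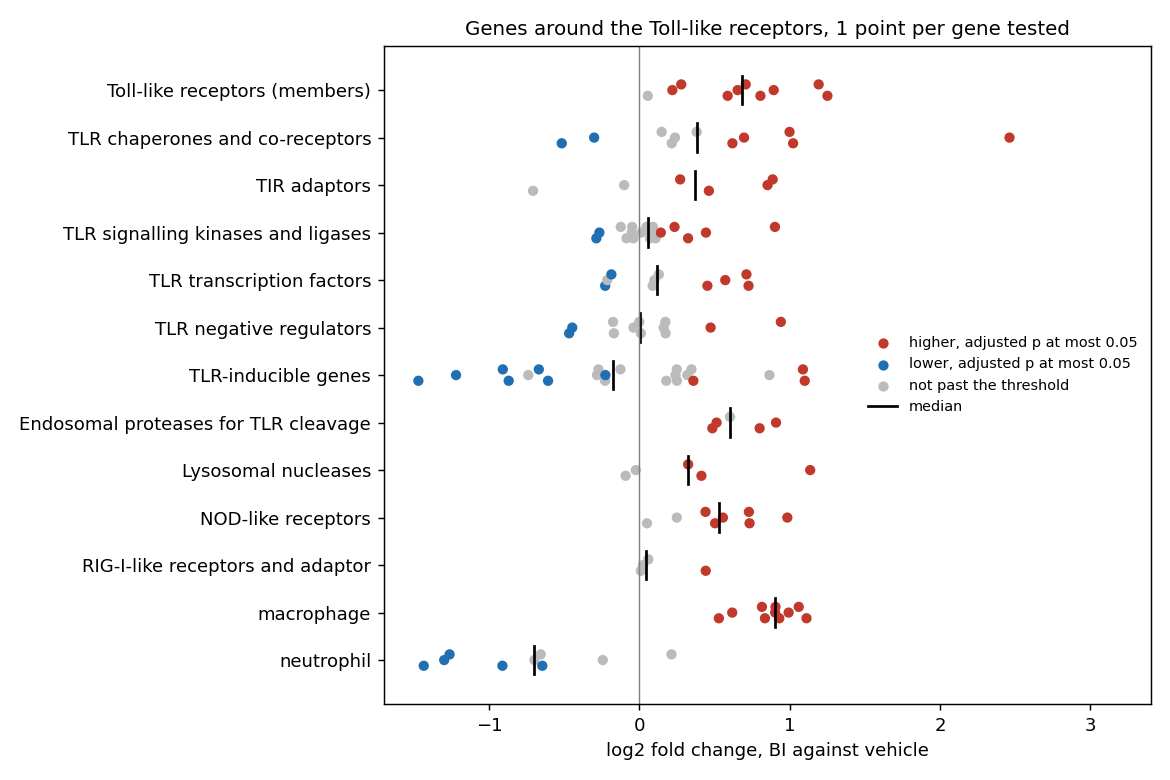
Log2 fold change of every tested gene in the receptor family, the lists of TLR pathway genes, 2 other sensor families and the macrophage and neutrophil markers, with a bar at the list's median and color for the call. The receptor median (0.68) lies to the right of 0 and that of the TLR-inducible genes (-0.18) to the left.

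Other families of innate sensors varied. Of 8 NOD-like receptor genes, 6 were higher and none lower (median log2 fold change 0.53), with Nlrp1b (0.98) and Naip2 (0.44) at the smallest p-values and Nod1, the most abundant, not called. The Naip genes are close paralogs. Only unique alignments were kept, so reads that fit more than 1 of them were not counted and their levels can be too low. Of 8 C-type lectin receptors, 4 were higher, among them Clec12a (0.87) and Mrc1 (0.82). Clec4e, the Mincle gene, was the 1 lower gene (by 0.47), a number near the share over all genes. Of 4 genes of the RIG-I-like pathway, which senses RNA in the cytosol, Dhx58 was higher (0.44), and Sting1 of the cytosolic DNA pathway was higher by 0.32 while Cgas was not called.

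Markers of several leukocyte types also differed between the groups. Of 10 macrophage markers, 10 were higher (median log2 fold change 0.90), and their summed level was 1707 to 2107 CPM in vehicle tumors and 3394 to 4024 CPM in BI tumors. Of 9 neutrophil markers tested, 5 were lower and none higher, with sums of 1151 to 1315 and 399 to 889 CPM, and S100a8 and S100a9 stand in both this list and that of the ligands. The other 4 neutrophil markers were not called, among them Mmp8 (log2 fold change 0.21). Mmp9, the most abundant, was also not called and overlapped (343 to 604 and 158 to 528 CPM). Of 9 markers of conventional dendritic cells, 7 were higher (sums of 77.6 to 92.6 and 123 to 185 CPM). Ccr7 was the most abundant (means of 35.9 and 75.9 CPM), and Itgax and Zbtb46 were not called (log2 fold changes 0.006 and -0.07). Of 6 monocyte markers 3 were higher, and the sums nearly touched (780 to 1067 and 1075 to 1503 CPM). Ccr2, Chil3 and Ace, the last being the most abundant, were not called (adjusted p = 0.0679, 0.0503 and 0.0912). B cells and plasmacytoid dendritic cells, which use Tlr7 and Tlr9, had low sums. Of 8 B cell markers 4 passed the filter and 2 were higher (4.97 to 8.53 and 6.04 to 11.96 CPM). Of 7 markers of plasmacytoid dendritic cells 6 were tested and 3 were higher (4.70 to 8.39 and 6.62 to 18.9 CPM). Lymphocyte and mast cell markers were higher as well, in 5 of 6 tested for T cells, 4 of 5 for NK cells and 5 of 6 for mast cells. Of stromal markers, 1 of 6 was higher for fibroblasts, 2 of 5 for endothelium and 0 of 5 for adipocytes, and none was lower. Their median log2 fold changes were 0.54, 0.38 and 1.03. The part of these cells in the receptor results was not tested. In bulk tumors, more cells of a type and more RNA per cell cannot be told apart.

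Set against the mean log2 CPM of the macrophage markers in the same tumor, which was 0.88 higher in BI tumors, the receptors differed among themselves. Tlr9 and Tlr8 were higher relative to the markers by 0.37 and 0.31, and the groups overlapped slightly for Tlr9 (-4.06 to -3.51 and -3.55 to -3.09) and were narrowly separate for Tlr8 (-2.51 to -2.30 and -2.23 to -1.99). Tlr5 and Tlr7 differed by 0.02 and -0.08. Tlr2, Tlr1 and Tlr13 were lower relative to the markers by 0.18, 0.23 and 0.29, and Tlr4, Tlr3 and Tlr6 by 0.61, 0.66 and 0.81, with no overlap between the groups for Tlr13 and for the last 3. Against the monocyte markers the differences ran from -0.79 to 0.39, and the groups were separate for Tlr3, Tlr4 and Tlr6 and overlapped for the others, Tlr8 and Tlr13 included. Against the neutrophil markers, themselves lower in BI tumors, all 10 receptors were higher, by 0.85 to 2.03, with no overlap. Against the conventional dendritic cell markers the groups were separate for Tlr3, Tlr4, Tlr6 and Tlr8, against the B cell markers for Tlr6, and against those of plasmacytoid dendritic cells for none. These differences are descriptions and were not tested.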

How the data were processed

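Messenger RNA of 9 mouse 4T1 tumors (3 vehicle, 6 BI) was sequenced with a stranded library kit and paired reads of 50 bases. The authors aligned the reads to mm9 with STAR, kept unique alignments, and counted with QuasR the reads starting in annotated exons of RefSeq genes; the deposited values are raw counts with a gene length for each of 18755 genes. Whether strand was used in counting is not given in the sources used here. Symbols were matched by Entrez identifier (18700 genes). Groups came from the agent named in the labels, and 0 columns were left unmatched.

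The counts were fitted in R 4.3.3 by the quasi-likelihood F test of edgeR 4.0.16 (TMM scaling, no covariates, low counts removed by filterByExpr at a minimum of 10 and a total of 15, Benjamini-Hochberg adjustment over 13966 genes, call at 0.05). Log2 CPM used a prior count of 2. Ratios of receptor pairs used an exact permutation test. The floor was 3 counts, which covers counting error only. Scripts were tested on simulated data. Positions came from GENCODE vM1 on NCBIM37, the assembly of mm9, and promoters from RefSeq on GRCm38.p6.

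The named genes were the 10 members, the 2 genes most like each among those whose mean log2 CPM reached 1, and of each list the 2 smallest p-values in each direction, the most abundant gene, and lists of up to 6 genes in full; other list genes are named to complete counts and were chosen after their values were seen. Some single genes under this rule are not reported here. Members and lists were chosen with earlier results of these data known. Alternatives were RLE or plain library size for scaling, a fit without the filter, a filter at 1 CPM in at least 3 tumors, DESeq2 1.42.0, the likelihood ratio test, voom of limma 3.58.1, a prior count of 0.5 and leaving out each tumor.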

Additional observations from a re-analysis of the deposited data

How the results depend on the processing

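The number of receptors called higher was 8 to 9 over 7 other settings of normalization, filter and test, and 7 to 9 when 1 tumor was left out. The number past the study's cutoffs was 7 under the other settings and 6 to 7 without 1 tumor, with Tlr13 the member lost. The number of receptors without overlap was 9 under RLE, with library size alone and in each of the 9 omissions. Without the filter on low counts Tlr3 was not called (adjusted p = 0.057). The Tlr6 log2 fold change turned to -0.019 without vehicle replicate 2, and ranged from -0.019 to 0.16 over the 9 fits. Tlr4 was not called without vehicle replicate 2 (adjusted p = 0.0831) or vehicle replicate 3 (0.101), and Tlr3 was not called in 8 of the 9 omissions. Tlr1, Tlr2, Tlr5, Tlr7, Tlr8, Tlr9 and Tlr13 kept their call in all fits. Leaving out a vehicle tumor raises the smallest possible exact p of a pair to 0.0714, so no pair could pass. Over the 9 omissions the log2 ratio differences ran from 0.55 to 0.71 for Tlr2 to Tlr6, -0.63 to -0.52 for Tlr6 to Tlr1, -0.48 to -0.33 for Tlr7 to Tlr8, 0.51 to 0.66 for Tlr7 to Tlr3, 0.17 to 0.25 for Tlr7 to Tlr13, 0.44 to 0.58 for Tlr7 to Tlr4, 0.017 to 0.14 for Tlr2 to Tlr1 and -0.52 to -0.36 for Tlr7 to Tlr9, the last of which passed without BI replicate 5 (adjusted p = 0.0408). A prior count of 0.5 changed no call of a pair, and RLE cancels in a ratio within a tumor. List genes called numbered 108 to 114 under DESeq2 and RLE. No paired analysis was possible, because the groups were different mice and the labels name no pairs.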
